A study of Mus musculus with 32 samples.

Results

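Chemokines are small secreted or membrane-bound proteins that steer leukocytes, and their receptors are G protein-coupled receptors or, for the atypical group, scavengers that bind chemokines without signaling through G proteins. Here, every gene whose mouse symbol is that of a chemokine ligand (Ccl, Cxcl, Cx3cl, Xcl), a chemokine receptor (Ccr, Cxcr, Cx3cr, Xcr), or an atypical receptor (Ackr) followed by its number was taken from an RNA sequencing count table of mouse brain arteries. This gave 60 of the 55357 genes in the table. A mean of at least 0.5 CPM (counts-per-million) over the 32 libraries was reached by 38 of the 60, which were 24 of 38 ligands, 10 of 18 receptors, and 4 of 4 atypical receptors. Cxcl5 lay just inside this floor, at 0.690 CPM, and Cxcl11 lay just outside, at 0.498 CPM.

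The study compared brain arteries of mice lacking Notch3, a receptor of vascular smooth muscle, with arteries of mice carrying a mutant form of it that models CADASIL, an inherited disease of small brain arteries. There were 4 groups of 8 untreated libraries: Notch3-/- mice and Notch3+/+ (WT) mice aged 3 months, and TgNotch3R169C mice and non-Tg (WT) mice aged 12 months. The TgNotch3R169C mice carried an X-linked rat Notch3 transgene with the mutation in addition to their own mouse Notch3 genes, and each mutant was matched to littermates of its own line on a C57BL/6 background. Both sexes were used in the study, and the labels do not give the sex, the cage, or the date of a sample, so that p-values measure the spread between these samples. The 2 control groups differ in age and in line, and these cannot be told apart.

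In the artery wall, endothelium, smooth muscle, pericytes, and perivascular fibroblasts make ligands such as Cxcl12 and Cx3cl1, while border macrophages, microglia, monocytes, and lymphocytes carry most of the classical receptors. Inflammatory ligands are usually low in quiescent vessels and are induced by NF-kB and interferon signaling. In whole tissue, fewer cells of a type and less RNA per cell cannot be told apart.

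Libraries held 20289487 to 54481934 counts. Notch3 was 16.2 ± 1.8 CPM in Notch3-/- arteries against 83.5 ± 12.0 CPM in their WT littermates and 182 ± 34 CPM in TgNotch3R169C arteries against 73.1 ± 8.2 CPM in theirs (mean ± SD, n = 8), in the direction of the labels. The markers of arteries were detected, with Acta2 and Flt1 the highest genes of the smooth muscle and endothelium lists. The same libraries also held markers of border macrophages, microglia, glia, and blood, so that the values describe arteries with the cells attached to them. In 7 libraries (1 Notch3-/-, 2 TgNotch3R169C, 4 WT aged 12 months, and 0 WT aged 3 months) the 8 choroid plexus epithelium markers summed to 8940 CPM or more, against at most 661.6 CPM in the other 25. The pituitary markers summed to over 100 CPM in 4 libraries, up to 8922 CPM in replicate 5 of the WT mice aged 3 months. For the members, results without the choroid-rich or the pituitary-rich libraries are given with the TgNotch3R169C comparison and with that of the control groups.

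The ligands with the highest level per kb of exon, the scale on which genes of unequal length are compared, were Cx3cl1 at 51.7, Cxcl12 at 46.1, Cxcl16 at 25.9, and Cxcl14 at 18.7 CPM per kb. Over the longest transcript in place of all exons, Cxcl12 came first, at 67.0 against 61.2 CPM per kb for Cx3cl1. Cx3cl1 (fractalkine) is a membrane-tethered ligand of endothelium and neurons. Its CPM ran from 185 to 254 with a median of 211 in WT mice aged 3 months, from 177 to 227 (median 202) in Notch3-/- mice, from 166 to 228 (median 175) in WT mice aged 12 months, and from 178 to 241 (median 214) in TgNotch3R169C mice. The 4 ranges overlapped throughout. Cxcl12, the stromal ligand of Cxcr4 and Ackr3, had the highest CPM of all members, with group means of 374 ± 35 (WT, 3 months), 365 ± 35 (Notch3-/-), 378 ± 40 (WT, 12 months), and 391 ± 46 (TgNotch3R169C), so the group means differed by less than the SD within a group. Cxcl16, a transmembrane ligand of Cxcr6, was at 71.2 ± 12, 80.5 ± 17, 81.9 ± 11, and 79.1 ± 14 CPM in the same order. Cxcl14, an orphan-like chemokine of epithelium and stroma, was at 37.9 ± 8.1, 35.3 ± 4.3, 29.5 ± 5.5, and 34.2 ± 6.7 CPM. For these 2 ligands too every pair of groups overlapped.

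A second tier of ligands, from Ccl5 to Cxcl10, had mean levels of 4.05 to 12.8 CPM over all libraries. The monocyte attractants Ccl12 (16.02 CPM per kb), Ccl8 (10.2), Ccl7 (9.97), and Ccl2 (7.30), which lie together on chromosome 11, followed Cxcl14 in level per kb. Ccl6 at 6.497, Ccl19 at 6.18, Cxcl10 at 5.67, Ccl5 at 4.21, Ccl9 at 3.15, Ccl27a at 3.02, Cxcl13 at 2.23, and Ccl25 at 1.69 CPM per kb came next. Ccl6 and Ccl9 are myeloid ligands of Ccr1, Ccl19 and Ccl25 are homeostatic ligands of Ccr7 and Ccr9, and Cxcl10 is an interferon-induced ligand of Cxcr3. The lowest described ligands, in mean CPM, were Cxcl9 (2.98), Cxcl13 (2.56), Cxcl1 (1.94), Ccl28 (1.79), Ccl24 (1.42), Ccl11 (1.16), Ccl22 (0.855), Ccl3 (0.778), and Cxcl5 (0.680, on the scaled library size). Ccl25 and Ccl27a were among the steadiest members, and the group means of Ccl25 lay between 12.4 and 12.7 CPM with an SD of at most 1.4. Cxcl9, another interferon-induced ligand, was the opposite, with 0.508 to 22.2 CPM among the 8 WT mice aged 12 months alone.

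Among receptors, the highest levels per kb were those of Cx3cr1 at 17.8, Ackr3 at 15.0, Ackr1 at 8.87, and Ccr2 at 5.97 CPM per kb. Cx3cr1, the fractalkine receptor of microglia and monocytes, was at 84.6 ± 8.0 (WT, 3 months), 78.2 ± 12 (Notch3-/-), 78.3 ± 15 (WT, 12 months), and 80.1 ± 9.6 CPM (TgNotch3R169C). Ackr3, the scavenging receptor of Cxcl12, was at 49.9 ± 3.3, 47.5 ± 4.5, 51.9 ± 2.5, and 52.2 ± 6.0 CPM in the same order. Ackr1, a chemokine-binding receptor of venules and red cells, had values of 7.41 to 20.2 CPM in WT mice aged 3 months, and its group means were 10.3 ± 4.1, 9.84 ± 3.9, 13.5 ± 5.3, and 16.2 ± 6.3 CPM. The groups overlapped for all 3 of these receptors, and 1 library in each of 3 groups carried an Ackr1 value well above the others. Other receptors at the floor were Ccr1 (15.2 CPM), Ccr9 (14.5), Cxcr4 (5.63), Cxcr3 (1.80), Cxcr6 (1.79), Ccr7 (0.889), and Ccr10 (0.824), and the other atypical receptors were Ackr4 (3.37) and Ackr2 (1.17).

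**Figure D1:**
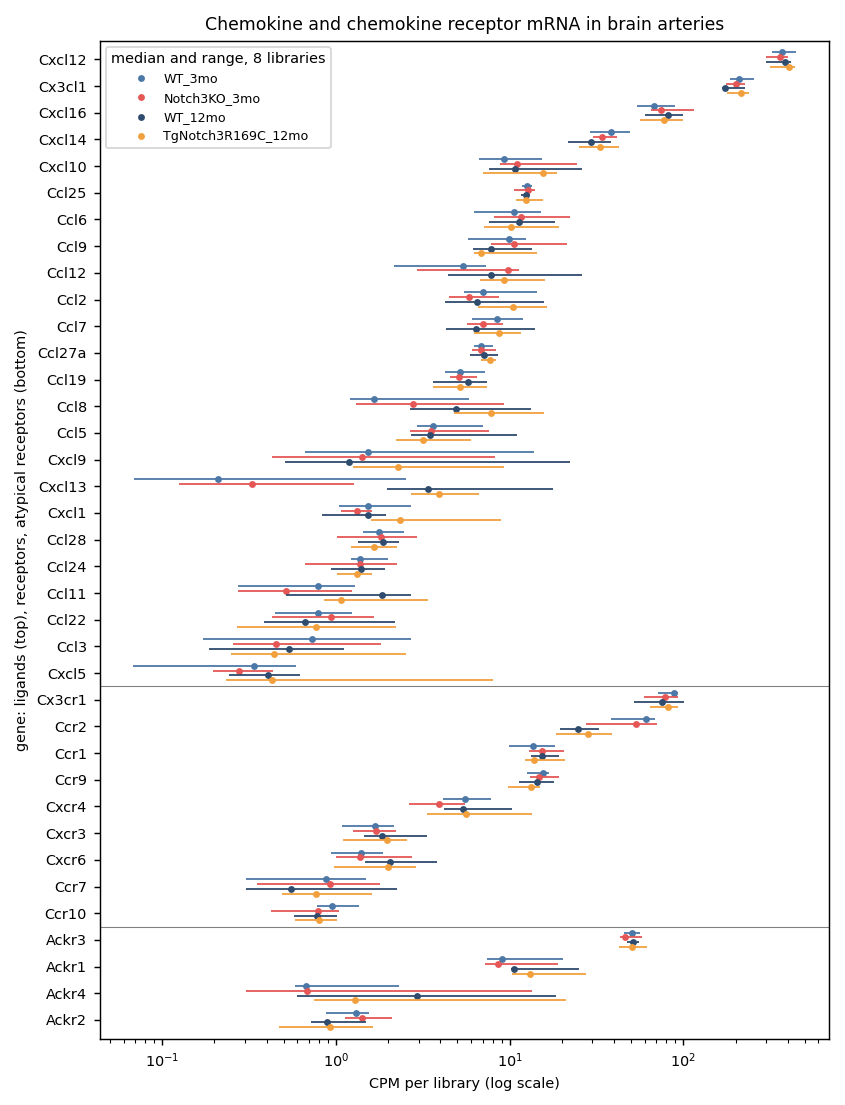
Level of 37 described chemokine ligands, receptors, and atypical receptors in CPM on a log axis, with a point for the median and a line for the range of the 8 libraries in each of the 4 groups. Cxcl12 and Cx3cl1 lie highest, the median of Ccr2 is lower and that of Cxcl13 higher in both groups aged 12 months, and Ackr4 and Cxcl9 have the widest ranges.

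Of the 22 members under the floor, 20 held some counts: the ligands Cxcl11, Xcl1, Ccl4, Cxcl2, Ccl17, Cxcl17, Ccl21a, Ccl1, Cxcl3, Ccl20, Ccl26, and Cxcl15, and the receptors Xcr1, Cxcr2, Cxcr5, Ccr6, Ccr3, Ccr4, Ccr8, and Cxcr1. Ccl21b and Ccl27b had no counts in any library, but they are near-identical copies of Ccl21a and Ccl27a, so reads from them may not have been counted and these 4 genes and Ccl19, which also has close copies, are uncertain. Ackr4, Cxcl16, Cxcl10, Cx3cr1, Ccl25, Ccl27a, and Ccr9 share exon sequence with genes on the opposite strand, 479 bp with Acad11 for Ackr4 552 bp with Zmynd15 for Cxcl16, and 1932 bp with AC165425.1 for Ccr9. On their own strand, Ackr1 shares 361 bp with Cadm3 and Ccr9 shares 269 bp with Gm17200. The library kit kept strand, but the strand setting of the counting is not given in the sources used here, so these values may include or lose reads of the neighbor.

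The first question was whether loss of Notch3 changed chemokine expression in arteries. Of 42 members tested, 0 were called at an adjusted p below 0.05 by edgeR's quasi-likelihood test with Benjamini-Hochberg adjustment, where 0.649% of all genes were called. At an unadjusted p below 0.05 there were 3 members, against 7.69% of all genes, DESeq2 called 0 with 4 at that unadjusted level, and limma voom called 0. This count of 3 moved with single libraries, to 9, of which 6 were higher, without replicate 8 of the WT mice, 7 without replicate 2 and 5 without replicate 6 of the Notch3-/- mice, and it was 2 to 4 without any other. The groups overlapped for each of the 42 members, 0.322% of all genes having groups that did not. Fitted changes were above 0 for 18 members and below 0 for 24, with a median log2 fold change of -0.01, the median of all genes being -0.0011. Cxcr4, the signaling receptor for Cxcl12, ran from 2.62 to 5.52 CPM with a median of 3.92 in Notch3-/- mice and from 4.13 to 7.78 CPM with a median of 5.54 in their WT littermates. The groups overlapped, with 5 of the 8 knockout values below the lowest WT value. The log2 fold change was -0.50 (SE 0.16, adjusted p = 0.262). Ccl12 ran from 2.94 to 11.3 CPM (median 9.83) against 2.15 to 7.36 CPM (median 5.41) in the WT group, and its change on the log2 scale was 0.74 (SE 0.27, adjusted p = 0.436). Ccl2, the main ligand of Ccr2, had the opposite sign to its neighbor Ccl12, at 4.47 to 8.70 CPM (median 5.81) against 5.502 to 14.3 CPM (median 7.07) and a change of -0.49 on the log2 scale (SE 0.21, adjusted p = 0.585). Replicates 2 and 3 of the WT mice, at 14.0 and 14.3 CPM, were the highest for Ccl2, and the other 6 lay between 5.502 and 7.55 CPM.

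The most abundant members had narrow intervals in Notch3-/- arteries. The 95% interval of the log2 fold change ran from -0.17 to 0.10 for Cxcl12, from -0.23 to 0.07 for Cx3cl1, from -0.30 to 0.07 for Cx3cr1, and from -0.18 to 0.05 for Ackr3. For Cxcl16 it ran from -0.08 to 0.44, for Cxcl14 from -0.35 to 0.15, for Ccr2 from -0.63 to 0.26, and for Ackr1 from -0.56 to 0.41. Intervals were wide for the members with uneven libraries, such as Ackr4 with -0.19 to 2.92, whose only high knockout value, 13.5 CPM in replicate 8, was in the knockout library with 25230 CPM of choroid plexus markers. Ccr2, the monocyte receptor for Ccl2, was uneven within the knockout group, with 64.2 to 70.5 CPM in replicates 1 to 4 and 27.7 to 42.4 CPM in replicates 5 to 8. Levels of the monocyte and dendritic cell marker list split likewise, at 3.64 to 3.96 against 2.96 to 3.21 on the log2 scale. Those of the T and NK cell list were 0.70 to 0.95 against 0.02 to 0.33. With either list as a covariate, 0 of 42 members were called by edgeR, and 5 and 8 had an unadjusted p below 0.05. The cause of this split was not tested.

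The second question was whether the CADASIL mutation did so. In TgNotch3R169C against WT arteries aged 12 months, 42 members were tested and 0 were called, where 0.113% of all genes were called, and DESeq2 and limma voom also called 0. An unadjusted p below 0.05 was reached by 4 members by edgeR, all of them higher, against 7.27% of all genes in either direction and 4% of genes with higher values (4 by DESeq2, 3 by voom). This count was 9, all higher, without replicate 2 of the WT mice, when 32 of 42 fitted changes were above 0. It was 1 without replicate 2 and 2 without replicate 7 of the TgNotch3R169C mice, and 3 to 5 without any other. Again the groups overlapped for every member tested, while 0.141% of all genes had groups that did not. Fitted changes were above 0 for 22 and below 0 for 20 members, with a median log2 fold change of 0.01 against -0.0074 over all genes. Without the 6 choroid-rich libraries of these groups, which leaves 6 against 4, they were above 0 for 37 of 43 members with a median of 0.15, and again 0 were called. An unadjusted p below 0.05 was then reached by 7 members, 6 of them higher, against 1412 of 18097 genes. Without the pituitary-rich libraries it was reached by 2 of 43 members, against 841 of 17942 genes, and 0 were called. Cxcl1, a neutrophil attractant, ran from 1.59 to 8.90 CPM with a median of 2.33 in TgNotch3R169C mice and from 0.828 to 1.95 CPM with a median of 1.54 in WT mice. Of the 8 transgenic values 6 lay above the WT range, and replicate 2, at 8.90 CPM, was the highest. For Cxcl1 the log2 fold change was 1.103 (SE 0.32, adjusted p = 0.461), and it was 0.68 (adjusted p = 0.693) without that replicate. Cxcl5, which binds the same receptor Cxcr2, was at 8.01 CPM in the same replicate and at 0.234 to 2.37 CPM in the other 7, against 0.242 to 0.626 CPM in WT mice. The median of Cxcl5 was 0.429 CPM in TgNotch3R169C mice and 0.405 CPM in WT mice. Cxcl5 had a fitted change of 1.995 on the log2 scale (SE 0.69, adjusted p = 0.6), which was 0.79 without replicate 2. The neutrophil markers summed to 139.1 CPM in replicate 2, the highest of the group, whose median was 28.2 CPM. In the WT mice they summed to as much as 127.2 CPM, in replicate 4, with a median of 36.6 CPM. The median log2 fold change of the neutrophil genes tested was -1.03, and 0 of them were called. The part of neutrophils in the Cxcl1 and Cxcl5 values was not tested.

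Ccl8, a monocyte and T cell attractant, ran from 4.77 to 15.8 CPM with a median of 7.84 in TgNotch3R169C mice and from 2.66 to 13.2 CPM with a median of 4.91 in WT mice. The groups overlapped, and replicate 2 of the WT mice, at 13.2 CPM, exceeded 5 of the 8 transgenic values. Its log2 fold change was 0.87 (SE 0.35, adjusted p = 0.655). Cx3cl1 had the smallest change of the 4, 0.17 on the log2 scale (SE 0.08, adjusted p = 0.679). For the other abundant members, the 95% interval of the log2 fold change ran from -0.12 to 0.22 for Cxcl12, from -0.20 to 0.26 for Cx3cr1, from -0.28 to 0.19 for Cxcl16, from -0.13 to 0.15 for Ackr3, from -0.05 to 0.48 for Cxcl14, from -0.14 to 0.44 for Ccr2, and from -0.24 to 0.78 for Ackr1.

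**Figure D2:**
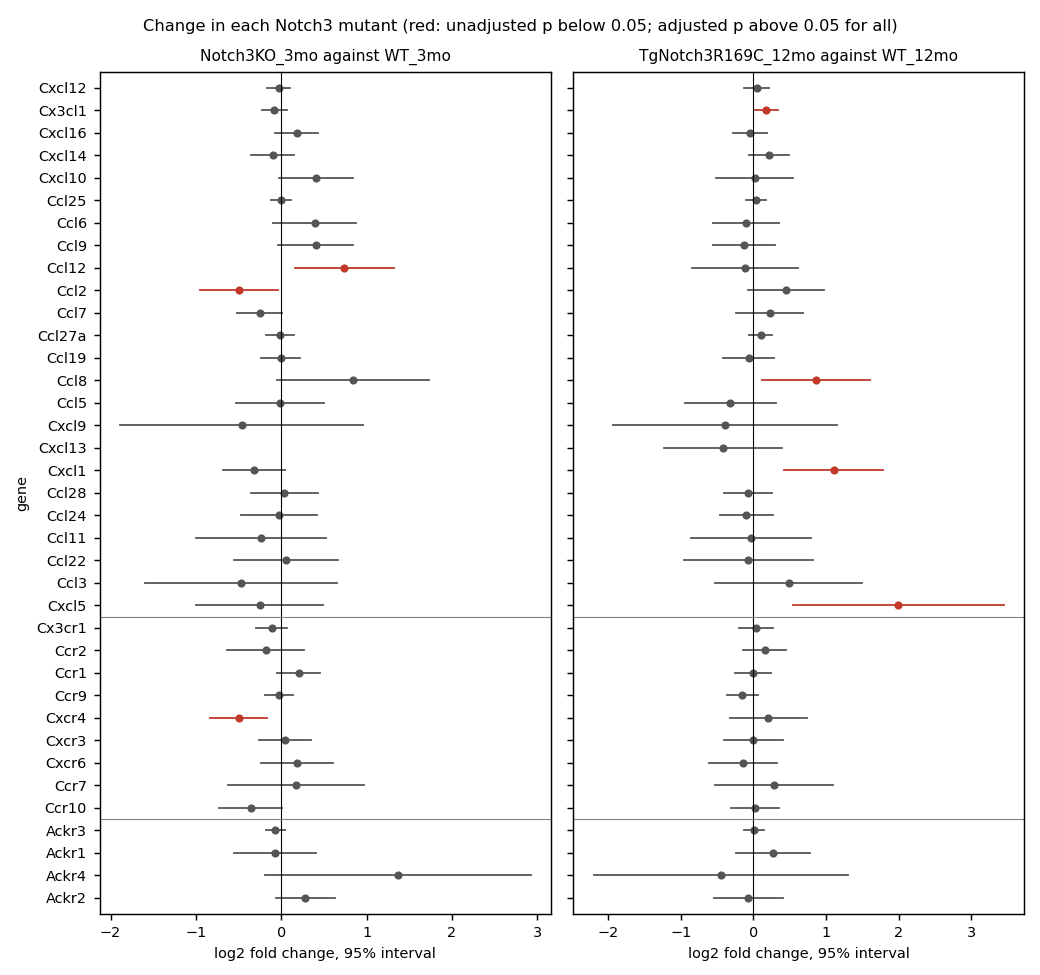
Log2 fold change (point) and 95% interval (line) of 37 described members in Notch3-/- against WT arteries aged 3 months (left) and TgNotch3R169C against WT arteries aged 12 months (right), with red for an unadjusted p below 0.05. Cxcl13 has no value on the left, where it was too low to be tested. The 3 red members on the left are Cxcr4, Ccl12, and Ccl2, the 4 on the right are Cxcl1, Cxcl5, Ccl8, and Cx3cl1, and none passed the adjusted test.

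The promoter of Cxcl1 is shown because this gene had the smallest p of the members in TgNotch3R169C arteries. The 250 bases upstream of its start, from RefSeq on GRCm38.p6, hold 2 matches to the kB motif (GGG, any 2 bases, then TTTCC, searched on both strands), 89 to 80 and 71 to 62 bases upstream and not overlapping, which are in capitals.
Cxcl1, chr5:90890995-90891244, plus strand: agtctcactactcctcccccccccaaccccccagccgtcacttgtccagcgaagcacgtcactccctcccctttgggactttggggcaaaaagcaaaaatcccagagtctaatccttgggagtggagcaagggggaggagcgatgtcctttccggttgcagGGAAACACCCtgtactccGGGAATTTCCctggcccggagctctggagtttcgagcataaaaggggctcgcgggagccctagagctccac
This motif is in the same window of 1.65% of 27018 genes and of 2 of the 28 members that matched the RefSeq table, Cxcl1 and Ccl9. A match describes the letters of the window only.

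**Figure D3:**
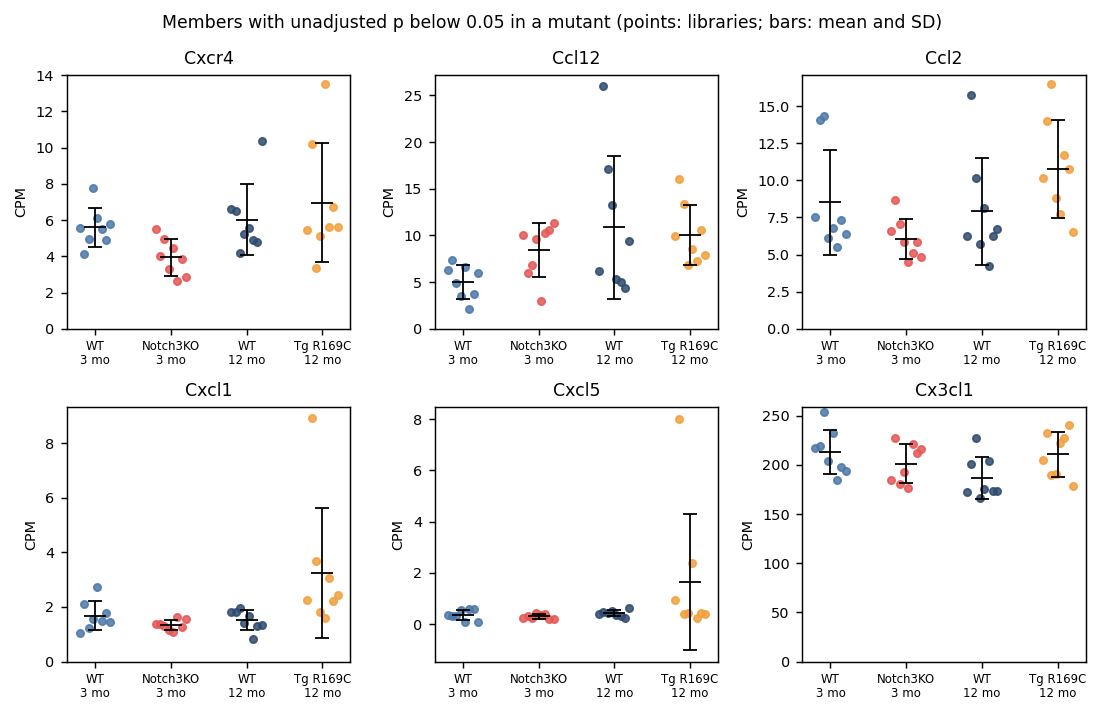
CPM of Cxcr4, Ccl12, Ccl2, Cxcl1, Cxcl5, and Cx3cl1 in each of the 8 libraries per group, in order of replicate number, with the mean and SD as bars. The high Cxcl1 and Cxcl5 values of 8.90 and 8.01 CPM belong to the same TgNotch3R169C library, and the groups overlap for every gene.

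The third comparison asked whether the changes in the 2 mutants differed from each other. In a fit of all 32 libraries, 0 of 45 members were called for the difference, where 0.35% of all genes were called. At an unadjusted p below 0.05 there were 5 members, all with the change in TgNotch3R169C arteries above that in Notch3-/- arteries, against 8.62% of all genes in either direction and 4.84% in this one. They were Cxcl1 (difference of log2 fold changes 1.43, SE 0.37, adjusted p = 0.0977), Ccl2 (0.94, SE 0.34, adjusted p = 0.379), Cxcl5 (2.25, SE 0.81, adjusted p = 0.384), Cx3cl1 (0.26, SE 0.11, adjusted p = 0.476), and Cxcr4 (0.71, SE 0.31, adjusted p = 0.516) by edgeR. DESeq2 called 1 member, Cxcl1, with an adjusted p of 0.0338, and limma voom called 0. Without replicate 2 of the TgNotch3R169C mice, the difference for Cxcl1 was 1.01 and that for Cxcl5 was 1.06 (adjusted p = 0.687).

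The largest differences among the members were between the 2 control groups. Of 41 members tested between WT mice aged 12 and 3 months, 5 were called, 4 higher and 1 lower at 12 months, where 7.92% of all genes were called, 3.87% higher and 4.05% lower. An unadjusted p below 0.05 was reached by 12 members, against 24.2% of all genes. This comparison shares its control samples with the comparisons of the 2 mutants. The 4 higher genes were Cxcl13, Ackr4, Ccl8, and Cxcl11, and the lower gene was Ccr2. Without the 4 choroid-rich libraries of the WT mice aged 12 months, Ccr2 was the only member called, and it was also the only one with the choroid plexus list or the endothelium list as a covariate. Without the pituitary-rich libraries, Cxcl13, Ccr2, and Cxcl11 were called, where 535 of 17821 genes were called. Ccl8 and Ackr4 lost their calls in that fit.

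Ccr2 guides monocytes out of the marrow and into tissue toward Ccl2, Ccl7, and Ccl12. Its CPM was 38.3 to 69.0 with a median of 60.9 in WT mice aged 3 months and 19.6 to 32.6 with a median of 24.7 in WT mice aged 12 months. The control groups did not overlap, which held for this member alone and for 1.24% of all genes. The log2 fold change was -1.15 (SE 0.14, adjusted p = 0.000295 by edgeR), or 0.449 of the level at 3 months with a 95% interval from 0.369 to 0.547. It kept this call in all 32 alternatives, 16 without a replicate and 16 others, with a log2 fold change from -1.24 to -1.01 and an adjusted p of at most 0.0126. Notch3-/- mice were at 50.2 ± 19 CPM, 3 of their 8 values (34.8, 27.7, and 28.4 CPM) lying below the lowest of their WT littermates and the last 2 of these within the range of the older WT mice. TgNotch3R169C mice were at 28.5 ± 6.3 CPM. Its chromosome 9 neighbor Ccr1, which binds inflammatory CC ligands, had a change of 0.16 on the log2 scale (SE 0.11, adjusted p = 0.398). None of the 8 monocyte and dendritic cell markers was called between the control groups. Their median log2 fold change was 0.24, and that of the monocyte gene Ly6c2 was 0.57 (SE 0.30, adjusted p = 0.267). With this list as a covariate the log2 fold change of Ccr2 was -1.24 (adjusted p = 0.000204).

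Cxcl13, which attracts B cells through Cxcr5, was at 0.0688 to 2.53 CPM with a median of 0.210 in WT mice aged 3 months and at 1.97 to 17.7 CPM with a median of 3.41 in WT mice aged 12 months. Only the highest value of the younger group, in replicate 8, entered the range of the older group. The log2 fold change was 3.18 (SE 0.65, adjusted p = 0.00815), or 9.08-fold. It was called without any 1 of the 16 libraries, with a log2 fold change from 2.59, without replicate 2 of the older mice, to 4.07, without replicate 8 of the younger. Cxcl13 was too low to be tested in Notch3-/- arteries, where it was at 0.446 ± 0.37 CPM, and it was at 3.95 ± 1.2 CPM in TgNotch3R169C arteries. Without the choroid-rich libraries the log2 fold change was 2.62 with an adjusted p of 0.0621. The B cell list, of which Jchain was called higher at 12 months, summed to 6.05 to 30.2 CPM in the older WT mice and 6.13 to 11.5 CPM in the younger. In the older WT mice this sum was highest in replicate 7 and Cxcl13 in replicate 2. The part of the B cell list in the Cxcl13 value was not tested.

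Ackr4, the scavenging receptor for Ccl19, Ccl21, and Ccl25, was at 0.581 to 2.31 CPM with a median of 0.672 in WT mice aged 3 months and at 0.594 to 18.4 CPM with a median of 2.92 at 12 months, and the ranges overlapped. The log2 fold change was 2.76 (SE 0.66, adjusted p = 0.0179). Over all groups, Ackr4 was 4.16 to 21.2 CPM in the 7 choroid-rich libraries and 0.304 to 2.31 CPM in the other 25, with no overlap. Among the WT mice aged 12 months, the 4 choroid-rich libraries held 4.16 to 18.4 CPM and the other 4 held 0.594 to 1.69 CPM. Without the choroid-rich libraries the log2 fold change was 0.27 (adjusted p = 0.748), and with the choroid plexus list as a covariate it was 0.16 (adjusted p = 0.832).

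Ccl8 was at 1.20 to 5.87 CPM with a median of 1.67 in WT mice aged 3 months and at 2.66 to 13.2 CPM with a median of 4.91 at 12 months. Only replicate 8 of the younger mice, at 5.87 CPM, exceeded the lowest older value, and the log2 fold change was 1.33 (SE 0.38, adjusted p = 0.0396). The call held without 6 of the 16 libraries and was lost without each of the other 10, with a log2 fold change from 0.98, without replicate 2 of the older mice (adjusted p = 0.0767), to 1.75. Cxcl11, an interferon-induced ligand of Cxcr3, was at 0.167 to 0.468 CPM (median 0.374) and 0.331 to 1.36 CPM (median 0.645), with overlapping groups and a fitted change of 1.11 on the log2 scale (SE 0.31, adjusted p = 0.0346). This call held without 8 of the 16 libraries and was lost without each of the other 8, the change then lying between 0.90 and 1.23 on the log2 scale over all 16. Without the choroid-rich libraries the log2 fold changes were 1.095 for Ccl8 (adjusted p = 0.152) and 1.20 for Cxcl11 (adjusted p = 0.0641). The other members with an unadjusted p below 0.05 were Cxcr6, Ccl11, Ccl12, and Cxcl10 with fitted changes above 0 (log2 fold changes 0.62, 1.16, 1.11, and 0.53, adjusted p 0.0545, 0.0715, 0.073, and 0.191) and Cxcl14, Cx3cl1, and Ccr10 with changes below 0 (-0.37, -0.19, and -0.35, adjusted p 0.101, 0.122, and 0.169).

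**Figure D4:**
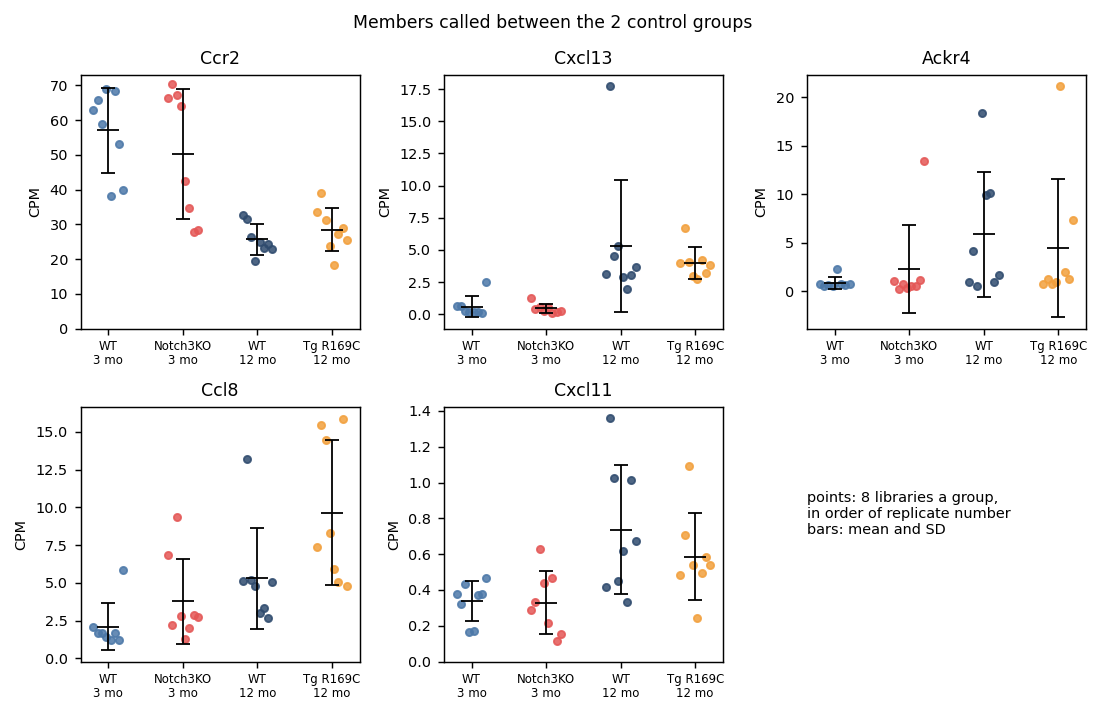
CPM of the 5 members called between the control groups, in each of the 8 libraries per group in order of replicate number, with the mean and SD as bars. Ccr2 is lower in every WT library aged 12 months than in any aged 3 months, Cxcl13 is at most 2.53 CPM in both groups aged 3 months, and Ackr4 is high in 1 Notch3-/- library, 2 TgNotch3R169C libraries, and 4 WT libraries aged 12 months.

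The promoters of the called genes Ccr2, Ccl8, and Cxcl13 are shown, with that of Cxcl10, an interferon-induced gene that was not called between the controls. Each is the 250 bases before the start on GRCm38.p6 from RefSeq, and capitals mark the interferon-stimulated response core (GAAA, any 2 bases, then GAAA, searched on both strands).
Ccr2, chr9:124101933-124102182, plus strand: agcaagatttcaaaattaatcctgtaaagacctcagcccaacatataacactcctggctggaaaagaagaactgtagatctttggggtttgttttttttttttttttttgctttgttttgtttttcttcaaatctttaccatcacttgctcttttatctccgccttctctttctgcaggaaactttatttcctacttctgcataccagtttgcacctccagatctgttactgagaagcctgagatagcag
Ccl8, chr11:82114935-82115184, plus strand: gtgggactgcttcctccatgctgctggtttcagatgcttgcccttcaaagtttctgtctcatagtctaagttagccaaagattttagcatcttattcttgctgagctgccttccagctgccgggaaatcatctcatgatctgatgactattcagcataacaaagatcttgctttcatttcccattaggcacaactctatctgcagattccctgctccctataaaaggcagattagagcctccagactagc
Cxcl13, chr5:95956689-95956938, plus strand: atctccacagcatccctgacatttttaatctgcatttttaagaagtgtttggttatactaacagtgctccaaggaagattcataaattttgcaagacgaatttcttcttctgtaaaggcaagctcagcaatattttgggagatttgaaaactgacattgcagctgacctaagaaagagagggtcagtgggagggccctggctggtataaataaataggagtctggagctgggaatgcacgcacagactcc
Cxcl10, chr5:92348890-92349139, minus strand: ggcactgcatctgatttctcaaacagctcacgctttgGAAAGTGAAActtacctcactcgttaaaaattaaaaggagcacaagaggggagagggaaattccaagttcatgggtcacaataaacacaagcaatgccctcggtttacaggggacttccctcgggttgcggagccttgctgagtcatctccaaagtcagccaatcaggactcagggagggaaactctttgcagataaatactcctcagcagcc
Cxcl10 holds 1 match, 213 to 204 bases upstream, and neither this motif nor the kB motif is in these windows of the other 3 genes. Neither motif is in the windows, not shown, of the called gene Ackr4 and the interferon-induced gene Cxcl9. The called gene Cxcl11 did not match the RefSeq table. The interferon core was present in 3.46% of 27018 genes and in 3 of the 28 members with a promoter, Cxcl10, Cxcl14, and Ccl19.

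Few genes of chemokine receptor signaling, other chemoattractants, or the NF-kB response were called, while more were called in the interferon response and smooth muscle lists. Of the 30 genes of chemokine receptor signaling, such as G protein subunits and arrestins, 0 were called in any of the 4 comparisons by edgeR, with median log2 fold changes of 0.00075 in Notch3-/- and 0.04 in TgNotch3R169C arteries. Of the 19 other chemokine and chemoattractant genes, 1 was called, Il16, a ligand of CD4, which was higher in the older WT mice (log2 fold change 0.50, SE 0.11, adjusted p = 0.0112). The list of NF-kB response and leukocyte adhesion genes had 0 of 19 tested genes called in each comparison. Of the 12 interferon response genes, 9 rose in the older against the younger WT mice. Ifit1 and Oasl2, antiviral effectors, rose in Notch3-/- arteries (log2 fold changes 0.77 and 0.53, adjusted p 0.0319 and 0.0453 by edgeR). Both comparisons share the WT mice aged 3 months, where the median sum of the list was lowest, at 709.6 CPM. It was 1010 CPM in Notch3-/-, 935.4 CPM in older WT, and 912.6 CPM in TgNotch3R169C mice. Of all genes, 7.92% were called between the controls and 0.649% in Notch3-/- arteries, in either direction. The list genes were not followed without the choroid-rich libraries, a fit that called 402 genes between the controls against 1398 with them. In Notch3-/- arteries the interferon-induced ligands had log2 fold changes of 0.40 for Cxcl10 (SE 0.21, adjusted p = 0.705), -0.47 for Cxcl9 (SE 0.67, adjusted p = 0.957), and -0.02 for Cxcl11 (SE 0.32, adjusted p = 0.998), and the interferon list had a median of 0.53. The smooth muscle list fell in 6 of 8 genes in Notch3-/- arteries and in 8 of 8 in the older WT mice, and what this does to the share of reads from other cells was not tested.

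Across libraries within groups, some members varied with leukocyte markers. After group means were removed, 684 pairs of a member and a cell type list were correlated over 32 libraries on the log2(CPM + 0.5) scale, with 100000 permutations within groups and Benjamini-Hochberg adjustment over all 684. An adjusted p below 0.05 for both Pearson's r and Spearman's rho was reached by 82 pairs, 79 of them positive, which involved 26 members. Genes outside the members were not correlated with the cell type lists in this way. No share over all genes therefore stands beside these counts, and they are not particular to chemokines on this evidence. The choroid plexus and pituitary lists, whose libraries fall into separate clusters, are counted in the 684 but gave no pooled value. The smallest unadjusted p that these permutations can give is 1e-05. The T and NK cell list took part in 17 pairs, the pan-myeloid and the monocyte and dendritic cell lists in 13 each, the neutrophil list in 10, the red cell list in 9, and the smooth muscle, astrocyte, and oligodendrocyte lists in 0. Members and lists come from the same libraries and share their depth and their blood content.

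The T cell ligand Ccl5 followed the T and NK cell list most closely (r = 0.889, rho = 0.853, adjusted permutation p 0.000456 and 0.000622), with r = 0.820 without the 2 libraries farthest from the list's median. Cxcr6, a receptor of resident T cells, had r = 0.810 and rho = 0.795 with the same list (r = 0.724 without the 2 libraries). The lymph node homing receptor Ccr7 had r = 0.833 and rho = 0.824 with the monocyte and dendritic cell list (r = 0.791 without the 2 libraries). Ccr2 varied with that list too (r = 0.721, rho = 0.760, and r = 0.698 without the 2 libraries). All of these had adjusted permutation p values of at most 0.00342.

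Ackr1 and Ackr3 varied with lists of vessel cells. Ackr1 was positively related to the venous endothelium list (r = 0.703, rho = 0.620, adjusted permutation p 0.00108 and 0.0105) and Ackr3 to the pericyte list (r = 0.633, rho = 0.744, adjusted p 0.00647 and 0.000977 by permutation). Without the 2 farthest libraries r was 0.545 and 0.628. Among myeloid members, Cx3cr1 followed the pan-myeloid list (r = 0.770, rho = 0.809, and r = 0.783 without the 2 libraries) and Ccl6 and Ccl9 the neutrophil list (r = 0.693 and 0.681, rho = 0.662 and 0.679, and r = 0.659 and 0.675), with adjusted permutation p values of at most 0.00456. Cx3cl1 was negatively related to the border macrophage list (r = -0.58, rho = -0.565, adjusted permutation p 0.0107 and 0.0203), and r was -0.576 without the 2 libraries.

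**Figure D5:**
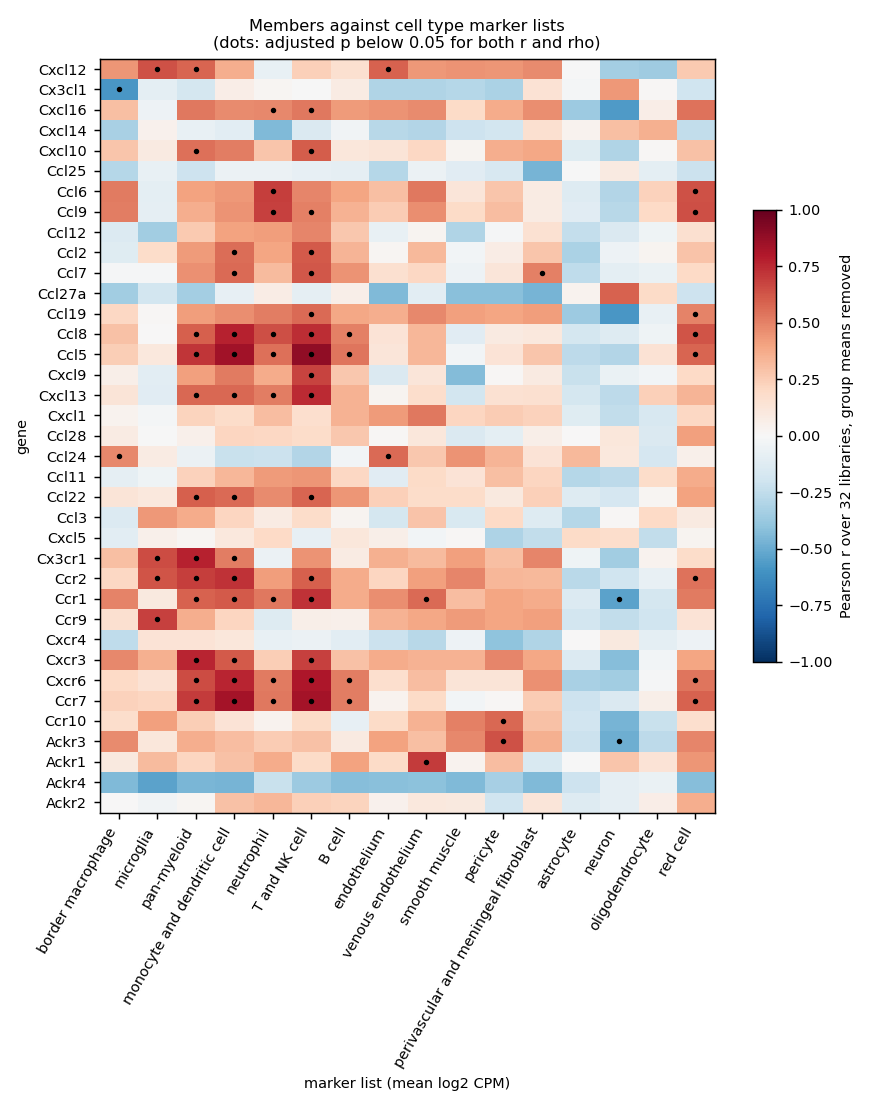
Pearson's r (color) of 37 described members with each cell type marker list over 32 libraries, with group means removed and dots where both r and rho had an adjusted permutation p below 0.05. Dots gather under the T and NK cell, monocyte and dendritic cell, and pan-myeloid lists, with Ackr1 under venous endothelium and Ackr3 under pericytes.

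Members also varied with each other. Of 703 pairs of described members, a comparison chosen after seeing the data, 76 had an adjusted permutation p below 0.05 for both r and rho, and 74 of them were positive. Pairs of other genes were not computed, so no share over all genes stands beside this count. The closest pair was Ccl6 and Ccl9, neighbors on chromosome 11 (r = 0.911, rho = 0.901, and r = 0.881 without the 2 farthest libraries). Ccl5 and Ccr7 came next (r = 0.906, rho = 0.868, and r = 0.864 without them), then Ccl5 and Ccl8 (r = 0.859, rho = 0.833, and r = 0.854). Ccl2 and Ccl7, which bind Ccr2, had r = 0.756 and rho = 0.697 (r = 0.723), and Ccl12 and Ccl7 had r = 0.720 and rho = 0.631 (r = 0.633). Each of these pairs had adjusted permutation p values of at most 0.015. WT replicate 2 aged 12 months had the highest value of its group for 16 of the 38 members, and Notch3-/- replicate 1 for 15, so that single libraries weigh on many of the pairs at once.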

How the data were processed

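The authors deposited 1 table of unnormalized gene counts for 32 libraries. Per the labels, polyA RNA was made into stranded libraries amplified by PCR, and the submitters' processing notes name bcl2fastq 2.20.0.422, cutadapt 1.10, Bowtie2 2.2.8, STAR 2.5.3a, HTSeq 0.6.1p1, and the build mm39, whose strand setting and annotation release are not given in the sources used here. All columns were matched to samples by their labels. Of the 55357 identifiers, 52081 matched a symbol. Chromosomes, exon lengths, and overlaps came from GENCODE vM21 (GRCm38), so no gene coordinates are given.

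Levels are CPM on library sizes scaled by TMM over all libraries, except that the floor of 0.5 CPM used the total counts. Counts were tested in R 4.3.3 with edgeR 4.0.16 (filterByExpr, TMM, glmQLFit, glmQLFTest) in the 16 libraries of 2 groups, or all 32 for the difference between the mutants, and adjusted over all genes tested by Benjamini-Hochberg. DESeq2 1.42.0, limma 3.58.1 (voom), other normalizations and filters, covariates, a replicate block, and fits without a library were alternatives, and those without choroid-rich or pituitary-rich libraries or with leukocyte covariates were chosen after seeing the data. The fits were tested on simulated data. No 2 libraries were duplicates. The members, gene lists, and tests were chosen with earlier results of these data known. Members were named by this rule: all at the floor with their level, and in full those called in any comparison, those with an unadjusted p below 0.05 in a mutant, and the 4 ligands and 4 receptors highest per kb. The values of 1 member are not reported here, although it is included in the counts of members.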

Additional observations from a re-analysis of the deposited data

Results flagged for a closer look

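In 31 of 148 sets of 8 libraries (37 members in 4 groups), 1 library stood apart from the other 7 by Dixon's test of its gap to the nearest against the range. Chance gives about 1 in 20 such sets where values are normally distributed. The CPM were tested without a log scale, and each library apart was the highest of its set. Members that vary together are not independent either, so no excess over chance is claimed. Replicate 2 of the WT mice aged 12 months was the highest by such a gap for 7 members, at 22.2 CPM for Cxcl9, 17.7 for Cxcl13, 13.2 for Ccl8, 11.1 for Ccl5, 3.34 for Cxcr3, 3.81 for Cxcr6, and 2.25 for Ccr7. Replicate 2 of the TgNotch3R169C mice stood above its group for Cxcl1 (8.90 CPM), Cxcl5 (8.01), Cxcl13 (6.69), and Ccl22 (2.21). Replicate 8 of the WT mice aged 3 months did so for Cxcl9 (13.9 CPM), Ccl8 (5.87), and Cxcl13 (2.53).

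Ackr4 had a high library in 3 groups, at 2.31 CPM in replicate 5 of the WT mice aged 3 months, 13.5 CPM in replicate 8 of the Notch3-/- mice, and 21.2 CPM in replicate 5 of the TgNotch3R169C mice, each the library with the most choroid plexus markers of its group. Ackr1 had one in replicate 3 of the WT mice aged 3 months (20.2 CPM), replicate 3 of the Notch3-/- mice (19.1 CPM), and replicate 1 of the WT mice aged 12 months (25.1 CPM). Cxcl9 was also high in replicate 3 of the Notch3-/- mice (8.26 CPM) and replicate 7 of the TgNotch3R169C mice (9.25 CPM).

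Further high libraries among the Notch3-/- mice were Ackr3 (57.8 CPM, replicate 1), Cxcl13 (1.27 CPM, replicate 1), Ccr9 (19.2 CPM, replicate 2), and Cxcl10 (24.3 CPM, replicate 4). Among the TgNotch3R169C mice they were Ccl9 (14.4 CPM) and Ccl5 (5.98 CPM) in replicate 3 and Ccl3 (2.52 CPM) in replicate 8. In WT mice, Cxcl12 was high in replicate 6 aged 3 months (447 CPM) and Cxcr4 in replicate 8 aged 12 months (10.4 CPM).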

How the results depend on the processing

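The count of 0 called members in each mutant held under all 16 alternatives and without any 1 library (0 to 0), and the library fits also gave 0 to 0 for the difference between the mutants, where DESeq2 and the replicate block each called 1. Between the control groups the count of 5 became 3 without a filter, with voom, or without pituitary-rich libraries, 8 with DESeq2, and 1 with the choroid plexus or endothelium covariate or without choroid-rich libraries, and 3 to 7 without 1 library, the 3 arising without WT replicates 2, 4, 5, 6, or 7 aged 3 months or 2 aged 12 months. The causes were not tested, and fewer samples or genes enter some of these fits. The labels do not say whether replicate numbers pair samples, and the main fits took samples as unpaired. Same-numbered samples had correlations from -0.188 to 0.392 (Notch3-/-), -0.302 to 0.446 (TgNotch3R169C), and -0.175 to 0.322 (controls). With 8 candidates for each sample, 5, 2, and 4 of 16 samples correlated best with their own number. These values do not settle whether samples of a number share a litter or a batch. With the replicate block, 97, 6, 715, and 63 genes were called against 115, 20, 1398, and 65, and 0, 0, 4, and 1 members, Ackr4 and Cxcl11 losing and Ccl11 gaining a call between the controls and Ccl2 gaining one in the difference. DESeq2 called 278, 80, 2262, and 155 genes.

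Among the members followed here, the signs that turned belonged to changes that were not called. Over all 42 members tested in TgNotch3R169C arteries, 14 changes were above 0 with the endothelium covariate, against 22 as reported. In Notch3-/- arteries, Cxcl12 was 0.009771 without choroid-rich libraries (-0.0493 to 0.01115 without 1 library), and Ackr1 was 0.02367 with the border macrophage and 0.08363 with the endothelium covariate (-0.28 to 0.14). In TgNotch3R169C arteries, with the endothelium covariate, the log2 fold changes were -0.03365 for Cxcl12, -0.05029 for Cx3cr1, -0.02216 for Ackr3, -0.005853 for Ccr2, and -0.02339 for Ackr1. There, Cxcl12 was -0.01946 and Cxcl16 0.04166 without choroid-rich libraries, Cx3cr1 was -0.006655 with the monocyte and dendritic cell covariate, and Ackr3 was -0.03553 with choroid plexus, -0.002038 with monocyte and dendritic cell, and -0.0004829 with T and NK cell covariates, and -0.005493 without pituitary-rich libraries. Without 1 library, Cx3cr1 ran from -0.03339 to 0.09272, Cxcl16 from -0.11 to 0.01405, and Ackr3 from -0.0325 to 0.0496. Ccl8 lost its call without WT replicates 1 to 7 aged 3 months or 2, 3, or 8 aged 12 months, and Cxcl11 without replicates 2 and 4 to 7 aged 3 months or 2, 3, or 7 aged 12 months, each left out alone. A floor of 1 CPM keeps 33 of the 38 members. Members near the floor rest on few counts, and libraries were amplified by PCR without molecular identifiers.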
